A study of Mus musculus with 12 samples.

Results

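The genes described here are 10 mouse orthologues of Alzheimer's disease risk genes whose products act outside the cleavage of the amyloid precursor: Apoe, Clu and Abca7 in lipid transport, Bin1, Picalm, Sorl1 and Cd2ap in endocytosis and sorting, and Abi3, Plcg2 and Inpp5d in signalling of microglia, the immune cells of the brain. They were chosen by symbol, and all 10 were found among the 24421 genes of the count table. All 10 passed the expression filter, which left 13065 genes for testing. Hippocampal RNA came from mice 2 months of age that had received BrdU, a label of dividing cells, and was profiled by 3′ mRNA sequencing in 12 libraries, 3 for each of 4 genotypes. WT mice carried neither change. 5xFAD is a mouse line in which mutant human genes of inherited Alzheimer's disease are driven by the neuronal Thy1 promoter. p75NTRko is the label for a knockout of p75NTR, a neurotrophin receptor encoded by Ngfr, and 5xFAD/p75NTRko mice carry both changes. The labels name biological replicates without saying more of the animals, and p-values measure the spread between these libraries.

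Risk variants near these genes were found in human populations, and most of them are thought to act by changing expression in glia or neurons. ApoE and clusterin are secreted by astrocytes as the main lipid carriers of the brain, and Abca7 is a transporter that moves phospholipid across membranes. Bin1, Picalm and Cd2ap are adaptors that bend membrane or couple it to clathrin and actin, and Sorl1 is a sorting receptor that returns cargo from endosomes to the Golgi. In microglia, Plcg2 is a phospholipase downstream of immune receptors, Inpp5d is a lipid phosphatase that damps the same pathway, and Abi3 belongs to a family of actin regulators.

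The libraries held 4316739 to 6683613 reads assigned to genes. Levels are given as CPM, a gene's counts scaled to a common library total. Reads of the 3′ end carry no gene-length term, but those outside annotated features are not counted. Whether that loss differs between genes was not tested, so ranks between genes hold for counted reads only. A level of 3 counts, 0.446 to 0.690 CPM, was taken as the limit of measurement. Ngfr was 5.95 to 10.5 CPM in the 6 libraries with the receptor label and 0.166 to 1.95 CPM in the other 6, so its direction ran against the knockout label. A 3′ read outside a deleted part would not test a deletion. Directions of the receptor effect therefore rest on the labels, and the libraries are called p75NTRko-labelled. Thy1 was higher in all 6 carriers of the transgenes (1597 to 4019 CPM) than in the other 6 (688 to 939.8 CPM). Xist, which is expressed from the inactive X chromosome, was over 50 CPM in 7 libraries (p75NTRko-labelled replicate 1 and every WT and 5xFAD/p75NTRko library) and at most 3.58 CPM in the other 5, so that neither 5xFAD against WT nor 5xFAD/p75NTRko against 5xFAD can be told apart from this difference. The p75NTRko-labelled libraries were mixed in Xist, so their comparisons with WT and with 5xFAD/p75NTRko are split by it in part. The interaction sets WT and 5xFAD/p75NTRko, all high in Xist, against 5xFAD, all low, and p75NTRko-labelled, where only replicate 1 was high. The interaction is therefore almost aligned with Xist. Each transgene and receptor effect was also averaged over both backgrounds, where the Xist classes are more even. The share of reads outside any annotated feature was 28.9% to 31.3% in the 6 non-carriers and 32.4% to 33.5% in the 6 carriers, without overlap. Markers of hippocampal neurons (8 of 8 in the table, 7 tested) summed to 11230 to 15190 CPM per library and those of astrocytes (11 of 11 tested) to 5553 to 6347 CPM. Markers of adjoining tissue varied more: choroid plexus markers (12 of 12 tested) summed to 179 to 7302 CPM and thalamic markers (10 of 10 tested) to 214 to 782 CPM. Of 5 blood markers, 4 were listed at 0 in every library.

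The 10 genes spanned a wide range of abundance. Apoe led at a mean of 1030.2 CPM over the 12 libraries, above 99.3% of tested genes or level with them, followed by Clu at 451 CPM, Sorl1 at 399.95 CPM, Picalm at 212 CPM and Bin1 at 94.7 CPM. Cd2ap stood near the middle of the tested genes at 19.1 CPM. The 3 microglial genes and Abca7 were scarce: Inpp5d averaged 6.63 CPM, Abi3 5.23 CPM, Abca7 4.35 CPM and Plcg2 1.99 CPM, the last from 5 to 19 counts per library. Abundance set how closely each could be followed. The coefficient of variation over all libraries was 6.49% for Picalm, 6.74% for Clu, 8.10% for Apoe, 8.54% for Sorl1 and 9.46% for Bin1, against 35.8% for Plcg2 and 26.1% for Abca7. For Plcg2 and Abca7 counting error alone would give 29.8% and 19.9%. For Abi3 the observed variation, 18.1%, was no larger than the 18.4% that counting gives.

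**Figure D1:**
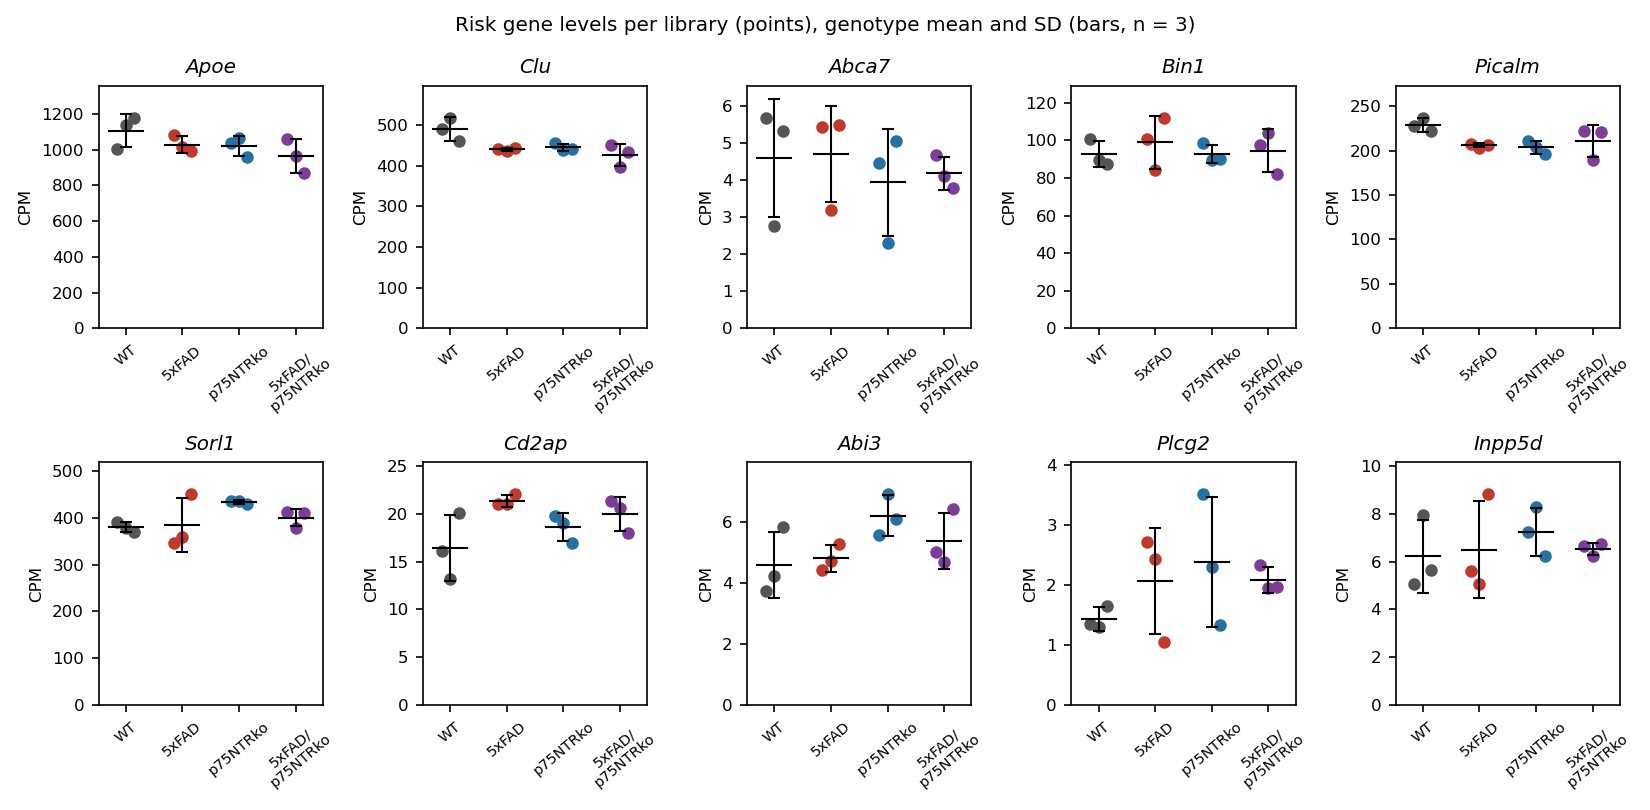
Level in CPM (vertical axes, each from 0) of the 10 risk genes in each library (points) by genotype (horizontal axes), with the genotype mean and SD (bars, n = 3). Genotype means lay close together for the abundant genes, and Plcg2 and Abca7 varied most over the 12 libraries, with coefficients of variation of 35.8% and 26.1%.

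No risk gene passed the test in any of the 8 comparisons: 0 of 10 had an adjusted p under 0.05 by edgeR's quasi-likelihood test, adjusted over all 13065 genes. The share of all tested genes that passed was itself small, 0.0536% in 5xFAD against WT, 0% in p75NTRko-labelled against WT, 0.0383% in 5xFAD/p75NTRko against 5xFAD, 0% against p75NTRko-labelled and 0% against WT, 0.0153% for the average transgene effect, 0.0842% for the average receptor-label effect and 0.0383% for the interaction. At an unadjusted p under 0.05, 1 of the 10 was found in 5xFAD against WT (Cd2ap), 1 in 5xFAD/p75NTRko against WT (Clu) and 1 for the average transgene effect (Cd2ap), and 0 in the other 5 comparisons. Among all tested genes these shares were 13.9%, 9.95% and 10.3%, so the members stood near the background. In the other 5 they were 11.5% in p75NTRko-labelled against WT, 5.08% in 5xFAD/p75NTRko against 5xFAD, 6.59% against p75NTRko-labelled, 6.3% for the average receptor-label effect and 9.32% for the interaction. DESeq2 also called 0 of 10 in each comparison after adjustment, and without adjustment it found Cd2ap in the first of these 3 comparisons and Apoe beside Clu in the second. The median absolute log2 fold change of the 10 genes was 0.10 in 5xFAD against WT and 0.18 in p75NTRko-labelled against WT, beside 0.18 and 0.17 over all tested genes. The libraries of compared groups did not overlap for 3 of the 10 genes in each of these comparisons (background 19.6% and 16.4% of tested genes). They did not overlap for 0 of 10 between 5xFAD/p75NTRko and 5xFAD (background 11.2%), 1 between 5xFAD/p75NTRko and p75NTRko-labelled (12.3%) and 2 between 5xFAD/p75NTRko and WT (11.5%). With 6 libraries on each side the count was 0 for carriers against non-carriers (0.582%) and 0 for receptor-labelled against the other libraries (0.321%).

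How much change the data leave room for differed by gene. In 5xFAD against WT the 95% interval of the fold change lay within 1.5-fold in either direction for 5 of the 10 genes (Apoe, Clu, Bin1, Picalm and Sorl1) and within 2-fold for 9, Plcg2 being the exception. For the average transgene effect 9 intervals lay within 1.5-fold, again without Plcg2, and for the average receptor-label effect 7 did. Plcg2 had a log2 fold change of 0.55 in 5xFAD against WT with an interval of -0.39 to 1.49, so a doubling was not excluded there. For both average effects and for 5xFAD/p75NTRko against 5xFAD its interval lay within 2-fold.

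**Figure D2:**
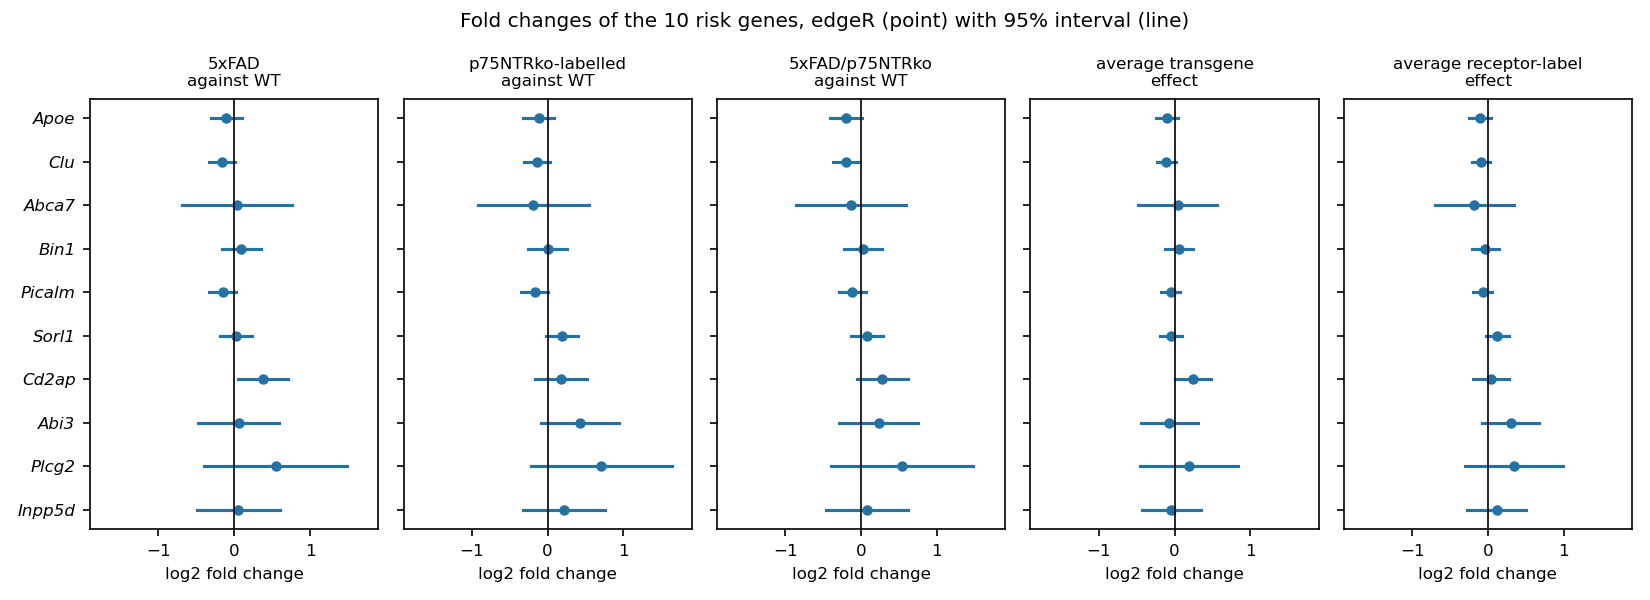
Log2 fold change (horizontal axes, 0 meaning no difference) of the 10 risk genes (rows) in 5 comparisons (panels), with the edgeR estimate as a point and its 95% interval as a line. Intervals are narrow for Apoe, Clu, Bin1, Picalm and Sorl1 and widest for Plcg2, and all cross 0 except those of Cd2ap in 5xFAD against WT and for the average transgene effect, and of Clu in 5xFAD/p75NTRko against WT.

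Among the lipid carriers, Apoe was 1002.5, 1139 and 1179 CPM in WT replicates 1, 2 and 3, and 1079.9, 1012 and 993 CPM in 5xFAD. It was 1039.7, 1067 and 958 CPM in p75NTRko-labelled and 1057, 967 and 868 CPM in 5xFAD/p75NTRko libraries. The genotypes overlapped, with the highest library in WT and the lowest in 5xFAD/p75NTRko. On the log2 scale Apoe differed from WT by -0.11 in 5xFAD (SE 0.0962, adjusted p 0.625, edgeR) and by -0.20 where both changes were carried (SE 0.0962, adjusted p 0.512, edgeR), where its interval was -0.40 to 0.01. Apoe is made by astrocytes. Its level correlated with the mean log2 CPM of the 11 astrocyte markers (Pearson r 0.736, Spearman rho 0.657, n = 12 libraries). Permutation p was 0.00589 and 0.0238, or 0.130 and 0.335 adjusted over 110 relations, and r was 0.540 without the 2 libraries farthest from the median of those markers. The relation did not pass after adjustment. It depends on the summary used: 5xFAD/p75NTRko replicate 3, the library lowest in Apoe, had the highest summed CPM of these markers, 6347 CPM. The relation of Apoe with that sum was not tested. All relations with marker lists given here use the mean log2 CPM. With the choroid plexus markers r of Apoe was 0.611 (permutation p 0.0342, adjusted 0.369). For Clu, also secreted by astrocytes, r with the astrocyte markers was 0.405 (permutation p 0.194, adjusted 0.656), or -0.155 with genotype means removed.

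Clu encodes clusterin, a chaperone and lipid carrier. It was 491, 519 and 462 CPM in WT libraries, 441, 437 and 443 CPM in the 5xFAD libraries, 456, 439 and 442 CPM in p75NTRko-labelled and 450.3, 397 and 434 CPM in 5xFAD/p75NTRko libraries. Every WT library was above all 9 others, and those 9 overlapped between genotypes. Lack of overlap with WT was common: 19.6% of tested genes did not overlap between 5xFAD and WT, 16.4% between p75NTRko-labelled and WT, and 11.5% between 5xFAD/p75NTRko and WT. These 3 comparisons share the WT libraries. The log2 fold change of Clu against WT was -0.16 in 5xFAD (SE 0.0805, adjusted p 0.402, edgeR), -0.14 in p75NTRko-labelled (SE 0.0804, adjusted p 0.516, edgeR) and -0.20 in 5xFAD/p75NTRko (SE 0.0804, adjusted p 0.482, edgeR). The last comparison was not split by Xist, and its interval was -0.37 to -0.03. With the 6 carriers set against the 6 non-carriers, a two-sided exact permutation test of log2 CPM gave p = 0.0238 for Clu. It was 0.260 adjusted over 20 such tests, where the smallest possible p was 0.00216. That test does not adjust for the receptor label or Xist. By edgeR the average transgene effect of Clu was -0.11 (SE 0.0569, p 0.0777, adjusted p 0.535), with an interval of -0.23 to 0.01.

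Abca7 was 2.76 to 5.68 CPM in WT (17 to 38 counts), 3.19 to 5.47 CPM in the 5xFAD libraries, 2.30 to 5.05 CPM in p75NTRko-labelled and 3.77 to 4.66 CPM in 5xFAD/p75NTRko libraries, with full overlap. Replicate 2 was the lowest of its genotype in WT libraries, 5xFAD and p75NTRko-labelled libraries. Its interval in 5xFAD against WT was -0.69 to 0.76 on the log2 scale. Of 12 other genes of lipoprotein handling, all tested, 0 passed in any comparison by edgeR. Apod, another lipid carrier, had an average receptor-label effect of -0.60 on the log2 scale (SE 0.185, p 0.00567, adjusted p 0.537, edgeR). In that comparison the median log2 difference of the 12 genes was 0.13, beside 0.00 over all genes.

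Among the endocytic genes, Cd2ap had the smallest p. It encodes an adaptor that links membrane proteins to the actin cytoskeleton. It was 16.1, 13.1 and 20.1 CPM in WT libraries, 21.1, 21.03 and 22.1 CPM in the 5xFAD libraries, 19.8, 19.1 and 16.9 CPM in p75NTRko-labelled and 21.3, 20.7 and 18.03 CPM in 5xFAD/p75NTRko libraries. The 5xFAD libraries lay together above all WT libraries, while WT replicate 3 was close to them and WT replicate 2 was the lowest of all 12. The log2 fold change in 5xFAD against WT was 0.38 (SE 0.157, p 0.0293, adjusted p 0.324, edgeR), a 1.30-fold difference with an interval of 0.04 to 0.71, and it was 0.24 without WT replicate 2 and 0.54 without WT replicate 3. The average transgene effect was 0.24 (SE 0.111, p 0.0457, adjusted p 0.475, edgeR). The exact permutation test of 6 carriers against 6 non-carriers gave p = 0.0260, or 0.260 adjusted over 20 tests.

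The levels of Cd2ap and Clu moved with the share of reads outside any feature, in opposite directions. For Cd2ap, Pearson r was 0.852 and Spearman rho 0.811 over 12 libraries (permutation p 0.00067 and 0.00226, adjusted over 110 relations 0.0369 and 0.131). For Clu they were -0.853 and -0.657 (permutation p 0.00014 and 0.0244, adjusted 0.0154 and 0.335). Without WT replicates 1 and 2, the libraries farthest from the median share, r was 0.585 for Cd2ap and -0.584 for Clu, and with genotype means removed it was 0.835 and -0.782. Among the 7 libraries with high Xist, r was 0.834 for Cd2ap and -0.928 for Clu, and the 5 others are too few for a value. Within the 6 carriers it was 0.604 and -0.603, and within the 6 non-carriers 0.867 and -0.956. With this share as a term in the fit, the log2 fold change of Cd2ap in 5xFAD against WT was -0.27 (adjusted p 0.788, edgeR) and its average transgene effect -0.29 (adjusted p 0.602, edgeR), while that of Clu in 5xFAD/p75NTRko against WT was 0.036 (adjusted p 0.949, edgeR). Since carriers and non-carriers did not overlap in this share, its part and that of the transgenes cannot be told apart.

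**Figure D3:**
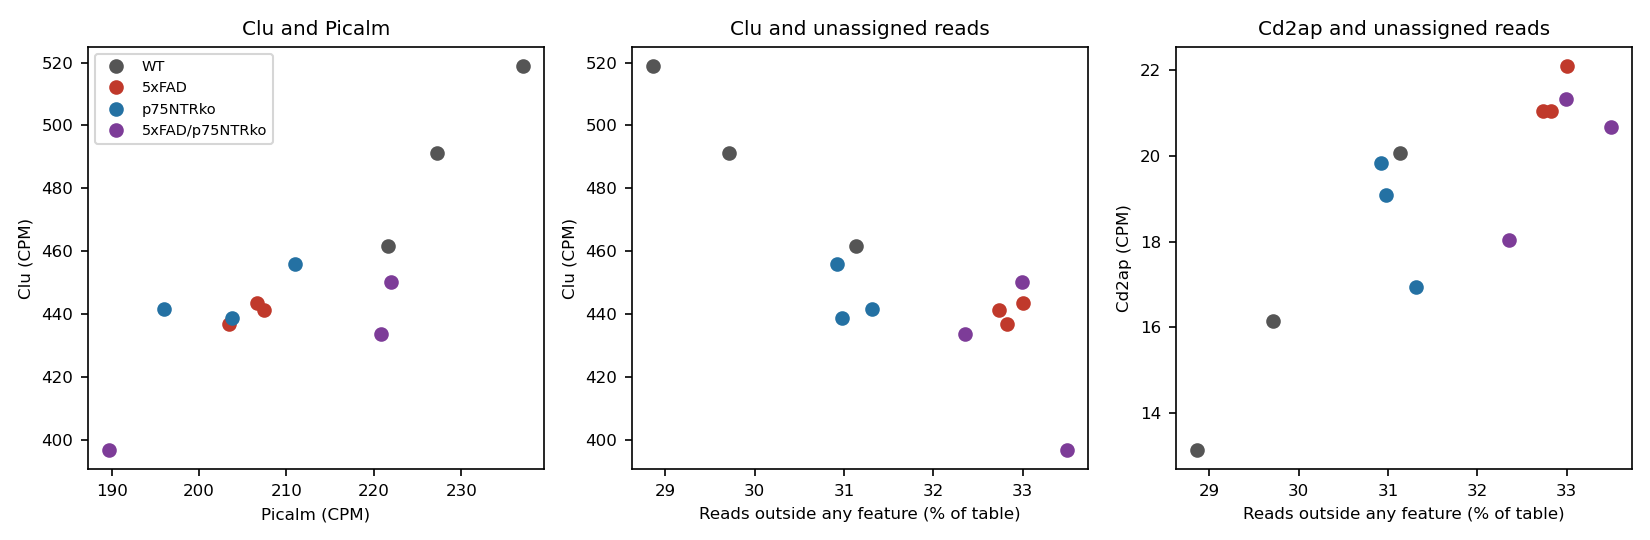
Each point is 1 of 12 libraries, coloured by genotype: Clu against Picalm in CPM (left), and Clu (middle) and Cd2ap (right) in CPM against the percentage of the table's reads outside any feature. Clu is higher where Picalm is higher and runs lower where that share is higher, Cd2ap runs higher there, and WT replicates 1 and 2 mark the low end of the share at 29.7% and 28.9%.

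Picalm encodes a clathrin assembly protein. It was 227, 237 and 222 CPM in WT libraries, 207, 203 and 207 CPM in the 5xFAD libraries, 211, 204 and 196 CPM in p75NTRko-labelled and 222, 189.7 and 221 CPM in 5xFAD/p75NTRko libraries. WT lay above 5xFAD and above p75NTRko-labelled libraries without overlap, by the shares of genes given for Clu, and overlapped with 5xFAD/p75NTRko. The log2 fold change against WT was -0.15 in 5xFAD (SE 0.0838, adjusted p 0.428, edgeR) and -0.17 in p75NTRko-labelled libraries (SE 0.0838, adjusted p 0.456, edgeR). Picalm and Clu had the closest levels of the 45 pairs of risk genes, at a Pearson r of 0.849 over 12 libraries (permutation p 0.00044, adjusted over 45 pairs 0.0198) and a rank correlation, rho, of 0.769 (permutation p 0.00494, adjusted 0.154). The r was 0.884 with genotype means removed, 0.895 among the 7 libraries with high Xist and 0.631 without WT replicate 2 and 5xFAD/p75NTRko replicate 2, the libraries farthest from the median of Clu. Marker lists, taken as the mean log2 CPM of their tested genes, moved with Picalm in opposite directions, and neither relation passed after adjustment. With the hippocampal neuron markers r was -0.802 and rho -0.811 (permutation p 0.00193 and 0.00239, adjusted over 110 relations 0.0708 and 0.131), or -0.913 without 5xFAD replicate 3 and WT replicate 2. With the 10 thalamic markers r was 0.760 and rho 0.776 (permutation p 0.00373 and 0.00435, adjusted 0.103 and 0.160), or 0.889 without 5xFAD/p75NTRko replicate 1 and WT replicate 3. Clu had the same signs, at r -0.668 and rho -0.601 with the neuronal list (permutation p 0.0160 and 0.0423, adjusted 0.251 and 0.437) and r 0.601 and rho 0.713 with the thalamic one (permutation p 0.0373 and 0.0117, adjusted 0.369 and 0.219). The thalamic markers summed to 382 to 675 CPM in WT libraries, 271 to 320.4 CPM in the 5xFAD libraries, 243 to 299.9 CPM in p75NTRko-labelled and 214 to 782 CPM in 5xFAD/p75NTRko libraries, and the part of either list in the levels of Picalm and Clu was not tested. With the share of reads outside any feature as a term, Picalm in 5xFAD against WT was 0.062 (adjusted p 0.933, edgeR), with the sign turned.

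The start regions of Picalm and Cd2ap are shown because their levels did not overlap between 5xFAD and WT. Those of Sorl1 and Inpp5d are shown because their levels had the second highest positive Pearson r among pairs of the 10. Each is the RefSeq sequence on GRCm38.p6, from 250 bases before the annotated start to 20 bases after it, 5′ to 3′ along the gene. They lie at chr7:90129963-90130232 (+), chr17:42876405-42876674 (-), chr9:42124278-42124547 (-) and chr1:87620062-87620331 (+) in that order. Capitals mark matches on either strand to CACGTG (the E-box core), GGGCGG (the GC box) and GAGGAAGT (a motif of the ETS factor PU.1).
Picalm: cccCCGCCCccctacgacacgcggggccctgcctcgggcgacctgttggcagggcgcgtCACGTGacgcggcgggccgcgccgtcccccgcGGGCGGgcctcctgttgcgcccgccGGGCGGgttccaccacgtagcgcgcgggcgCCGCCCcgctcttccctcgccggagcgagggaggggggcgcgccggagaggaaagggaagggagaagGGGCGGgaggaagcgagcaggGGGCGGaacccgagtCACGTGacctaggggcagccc
Cd2ap: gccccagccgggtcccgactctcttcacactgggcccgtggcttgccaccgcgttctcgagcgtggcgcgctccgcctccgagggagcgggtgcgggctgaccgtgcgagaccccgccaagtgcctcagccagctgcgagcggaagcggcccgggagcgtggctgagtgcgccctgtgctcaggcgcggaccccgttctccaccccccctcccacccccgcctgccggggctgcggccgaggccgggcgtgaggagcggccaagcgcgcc
Sorl1: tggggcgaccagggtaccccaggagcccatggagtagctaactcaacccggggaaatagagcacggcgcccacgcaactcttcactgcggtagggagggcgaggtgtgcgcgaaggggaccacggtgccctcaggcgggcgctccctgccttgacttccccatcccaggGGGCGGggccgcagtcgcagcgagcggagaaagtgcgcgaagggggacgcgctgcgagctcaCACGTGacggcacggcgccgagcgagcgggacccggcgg
Inpp5d: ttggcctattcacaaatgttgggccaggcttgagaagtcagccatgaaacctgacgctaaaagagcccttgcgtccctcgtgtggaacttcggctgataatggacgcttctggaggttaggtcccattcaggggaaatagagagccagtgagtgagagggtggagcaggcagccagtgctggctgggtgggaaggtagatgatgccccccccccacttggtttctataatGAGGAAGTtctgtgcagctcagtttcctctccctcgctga
Picalm holds 2 matches to CACGTG, 1 of them across the annotated start, and 6 to GGGCGG, with 40 CpG dinucleotides in 270 bases. Sorl1 holds 1 match to each of these motifs and 31 CpG dinucleotides. Cd2ap holds none of the 3 motifs but has 34 CpG dinucleotides. On GENCODE M21 this gene starts at 42876665 instead, so nearly all of its window lies inside the gene there. Inpp5d holds 1 match to GAGGAAGT and only 6 CpG dinucleotides. Among 32817 windows of this length, 6.57% hold CACGTG, 34.1% GGGCGG and 2.72% GAGGAAGT, and no motif overlapped another in these 4. A window was matched for 7 of the 10 genes, not for Clu, Bin1 or Abi3.

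Sorl1 was 391, 379 and 369.8 CPM in WT libraries, 347, 358 and 451 CPM in the 5xFAD libraries, 436, 436 and 429 CPM in p75NTRko-labelled and 413, 379 and 410.03 CPM in 5xFAD/p75NTRko libraries. The p75NTRko-labelled libraries lay close together above all WT and all 5xFAD/p75NTRko libraries, while 5xFAD was split, with replicate 3 the highest of all 12 and replicate 1 the lowest. For lack of overlap the background was 16.4% of tested genes against WT and 12.3% against 5xFAD/p75NTRko. The log2 fold change in p75NTRko-labelled against WT was 0.19 (SE 0.0977, adjusted p 0.465, edgeR), and the average receptor-label effect was 0.12 (SE 0.0691, adjusted p 0.786, edgeR). The levels of Sorl1 and Inpp5d correlated at r 0.702 and rho 0.755 over 12 libraries (permutation p 0.0131 and 0.00683, adjusted over 45 pairs 0.196 and 0.154), which did not pass, and r was 0.333 among the 7 libraries with high Xist.

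Bin1 bends membrane and is abundant in oligodendrocytes and neurons. Its genotype means were the closest of the 10, with the highest, 99.04 CPM ± 14.1 in 5xFAD, only 1.07 times the lowest, 92.7 CPM ± 4.94 in p75NTRko-labelled libraries (SD, n = 3 each). WT was at 92.7 CPM ± 7.12 and 5xFAD/p75NTRko at 94.5 CPM ± 11.3 (SD, n = 3 each). The interval of the average transgene effect was -0.12 to 0.24 on the log2 scale and that of the average receptor-label effect -0.21 to 0.15. Over the same libraries the 12 oligodendrocyte markers summed to 4215 to 7276 CPM in WT libraries, 5489 to 7874 CPM in the 5xFAD libraries, 6522 to 7899 CPM in p75NTRko-labelled and 4190 to 5440.0 CPM in 5xFAD/p75NTRko libraries. In 5xFAD/p75NTRko against 5xFAD, which also differ fully in Xist, all 12 had negative log2 fold changes, 5 of them at an unadjusted p under 0.05 and 0 after adjustment (edgeR), where 3.1% of all tested genes were lower without adjustment.

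Of 22 other genes of clathrin coats, endosomes and the retromer, all tested, 0 passed in any comparison by edgeR. Lowest in p stood Vps35, a core subunit of the retromer, which works with Sorl1, with 0.29 on the log2 scale in 5xFAD against WT (SE 0.0796, p 0.00285, adjusted p 0.213, edgeR), and Snx1, a sorting nexin, with -0.36 in 5xFAD/p75NTRko against WT (SE 0.109, p 0.00492, adjusted p 0.425, edgeR). With the share of reads outside any feature as a term these values were 0.16 for Vps35 (adjusted p 0.774, edgeR) and -0.023 for Snx1 (adjusted p 0.978, edgeR). Vps35 was 157 CPM ± 6.15 in WT libraries, 191.6 ± 8.98 in the 5xFAD libraries, 161 ± 2.54 in p75NTRko-labelled and 173 ± 8.39 in 5xFAD/p75NTRko libraries (SD, n = 3 each). The median log2 difference of the 22 genes was 0.02 in 5xFAD against WT and 0.00 between 5xFAD/p75NTRko and WT, beside 0.00 over all genes in each.

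The nearest relatives of the risk genes were compared as well, of which 14 of 15 were in the table and 13 were tested. Some relatives were more abundant than the risk gene and others less: Snap91, the neuronal counterpart of Picalm, averaged 456 CPM, and Amph, that of Bin1, 305 CPM. Abi1 and Abi2 averaged 274 and 418 CPM, far above Abi3, and Inppl1 58.3 CPM, above Inpp5d. Below Sorl1 stood its relatives Sort1 at 379 CPM, Sorcs3 at 56.3 CPM, Sorcs2 at 28.5 CPM and Sorcs1 at 10.99 CPM. Plcg1, the relative of Plcg2, averaged 0.288 CPM, under the limit of measurement, so it cannot be ranked against Plcg2. None of the 13 passed (0 by edgeR in each comparison), but the smallest p of all the genes listed here was that of Sorcs3, a receptor of the sortilin family related to Sorl1. Sorcs3 was 52.1, 44.8 and 50.4 CPM in WT libraries, 66.4, 62.3 and 72.6 CPM in the 5xFAD libraries, 48.2, 47.4 and 46.4 CPM in p75NTRko-labelled and 58.8, 67.8 and 57.9 CPM in 5xFAD/p75NTRko libraries. All 6 carriers lay above all 6 non-carriers, as did 0.352% of tested genes. The average transgene effect was 0.41 on the log2 scale (SE 0.0745, p 6.28e-05, adjusted p 0.0911, edgeR). DESeq2 gave Sorcs3 an adjusted p of 0.00297, and leaving out 5xFAD/p75NTRko replicate 1 or replicate 3 brought the edgeR value past the threshold as well, so that 3 of 19 alternatives called it, over a range of 0.00297 to 0.655. With the share of reads outside any feature as a term the effect was 0.19 (adjusted p 0.655, edgeR). Sorl1 itself had an average transgene effect of -0.05 (SE 0.0691, adjusted p 0.845, edgeR), Sort1 one of 0.03 (SE 0.0696, adjusted p 0.911, edgeR), and Sorcs2 one of -0.01 (SE 0.0966, adjusted p 0.980, edgeR). Sorcs2 stood lower in libraries with the receptor label, by -0.31 on average (SE 0.0966, p 0.00662, adjusted p 0.573, edgeR), also short of the threshold.

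**Figure D4:**
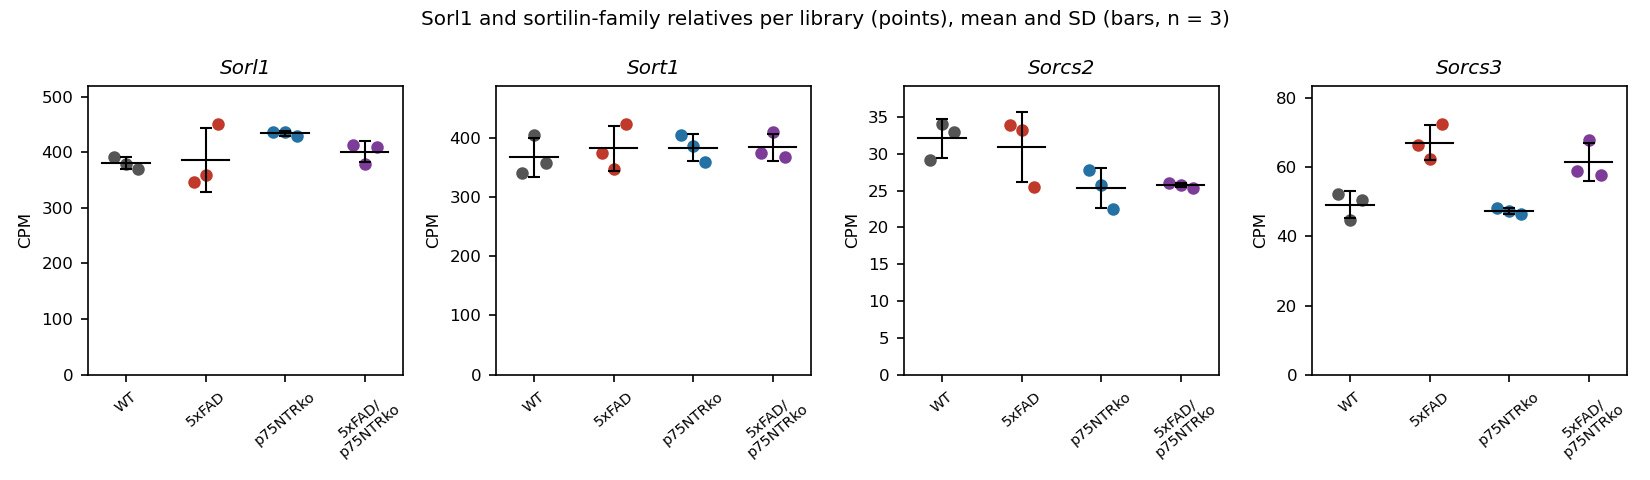
Level in CPM (vertical axes, from 0) of Sorl1 and 3 relatives in each library (points) by genotype, with mean and SD (bars, n = 3). Sorcs3 is at 57.9 CPM or above in all 6 carriers and at 52.1 CPM or below in the other 6, while Sorl1 and Sort1 overlap across genotypes.

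The 3 microglial risk genes rested on few counts: 24 to 41 per library for Abi3, 27 to 49 for Inpp5d and 5 to 19 for Plcg2. The 13 microglial markers, all tested, varied little and summed to 634 to 714 CPM in WT libraries, 673 to 731 CPM in the 5xFAD libraries, 648 to 709 CPM in p75NTRko-labelled and 657 to 702 CPM in 5xFAD/p75NTRko libraries. With the mean log2 CPM of these markers, r over 12 libraries was 0.243 for Abi3, 0.126 for Inpp5d and 0.0067 for Plcg2. In bulk tissue, fewer cells of a type and less RNA per cell cannot be told apart. Markers of macrophages at the brain's borders (6 in the table, 5 tested) summed to 14.0 to 35.3 CPM.

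Abi3 was 3.74, 4.22 and 5.81 CPM in WT libraries, 4.41, 4.69 and 5.26 CPM in the 5xFAD libraries, 5.56, 6.90 and 6.10 CPM in p75NTRko-labelled and 4.9958, 4.68 and 6.39 CPM in 5xFAD/p75NTRko libraries. The receptor-labelled libraries were higher on average, at 5.77 against 4.69 CPM, with overlap. An exact permutation test of the 6 labelled against the 6 other libraries gave p = 0.0455 (two-sided), or 0.303 adjusted over 20 tests. The average receptor-label effect was 0.30 (SE 0.174, p 0.106, adjusted p 0.793, edgeR). Abi3 is a neighbour of the gene named by that label: on GENCODE M21 (GRCm38), Abi3 lies at chromosome 11, 95830074 to 95842476, and Ngfr at 95568818 to 95587735, 242339 bases away. Between them 3 genes were tested, and 0 of these passed by edgeR, with 0 at an unadjusted p under 0.05. The closest to Ngfr, Phb, had an average receptor-label effect of 0.01 (SE 0.153, adjusted p 0.994, edgeR).

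Inpp5d was 5.08, 7.95 and 5.64 CPM in WT libraries, 5.60, 5.07 and 8.84 CPM in the 5xFAD libraries, 7.23, 8.28 and 6.24 CPM in p75NTRko-labelled and 6.66, 6.24 and 6.72 CPM in 5xFAD/p75NTRko libraries. The genotypes overlapped throughout, with 5xFAD holding both the highest and the lowest library. Plcg2 was 1.34, 1.30 and 1.66 CPM in WT libraries, 2.72, 2.44 and 1.05 CPM in the 5xFAD libraries, 3.52, 2.30 and 1.34 CPM in p75NTRko-labelled and 2.33, 1.95 and 1.97 CPM in 5xFAD/p75NTRko libraries. WT and 5xFAD/p75NTRko did not overlap, as for 11.5% of tested genes, and the difference was 0.54 on the log2 scale (SE 0.437, adjusted p 0.677, edgeR). Of 18 partners in microglial signalling, all tested, 0 passed in any comparison by edgeR. Lowest in p was the kinase Lyn, with an interaction, almost aligned with Xist, of -0.58 (SE 0.227, p 0.0230, adjusted p 0.488, edgeR). Next was the actin regulator Cyfip1, with 0.55 in 5xFAD against WT (SE 0.235, p 0.0345, adjusted p 0.334, edgeR). With the share of reads outside any feature as a term Cyfip1 turned to -0.86 in that comparison (adjusted p 0.385, edgeR), and it passed in 5xFAD/p75NTRko against p75NTRko-labelled, at -0.91 (adjusted p 0.0486, edgeR) against 0.05 without the term. The median of the 18 genes was -0.01 in 5xFAD against WT.

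A further 30 risk genes outside amyloid processing were listed, of which 24 were tested, and 0 passed by edgeR in any comparison. In 5xFAD against WT 4 were higher and 2 lower at an unadjusted p under 0.05, beside 7.73% and 6.14% of all tested genes, and in p75NTRko-labelled against WT 4 were higher and 1 lower, beside 5.33% and 6.16%. Their median log2 fold change was 0.09 and 0.16, beside 0.00 over all genes in each. Here the leading genes by p were Cd33, a sialic acid receptor of microglia, with 1.44 in p75NTRko-labelled against WT (SE 0.403, p 0.00291, adjusted p 0.264, edgeR), and Celf1, an RNA-binding protein, with an average transgene effect of 0.21 (SE 0.0662, p 0.00676, adjusted p 0.346, edgeR). With the share of reads outside any feature as a term the sign of Celf1 turned, to -0.12 (adjusted p 0.733, edgeR). Cd33 was close to the limit of measurement, at 0.850 CPM ± 0.115 in WT libraries, 1.44 ± 0.434 in the 5xFAD libraries, 2.37 ± 0.415 in p75NTRko-labelled and 2.07 ± 0.578 in 5xFAD/p75NTRko libraries (SD, n = 3 each).

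The genes whose log2 CPM ran closest to each risk gene over the 12 libraries were sought among 6974 others of at least 20 CPM. A best match among so many is high by selection, and the libraries share their depth and tissue composition. Clu was closest to Gm4737 (r 0.958) and Apln (r 0.935). Picalm was closest to Atp1b2, a sodium pump subunit (r 0.965), and to Grm4, a glutamate receptor (r 0.948). Cd2ap was closest to Ash1l, a histone methyltransferase (r 0.960), and to Irf2bp2 (r 0.950). The other 7 had best matches at r of 0.836 to 0.910 and next best at 0.800 to 0.864, named in that order: Fgf1 and Arl6 for Apoe, Aasdhppt and Clk1 for Abca7, Rbpj and Slc24a2 for Bin1, Napa and Mgll for Sorl1, Ptchd4 and Fam163b for Abi3, Rbm18 and H3f3b for Plcg2, and Ddx27 and Rpp21 for Inpp5d.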

How the data were processed

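The authors deposited a table of raw counts of reads per gene symbol for 12 libraries, made from total RNA by QuantSeq 3′ forward library preparation with 14 amplification cycles, per the labels' protocols. The submitters' processing notes name FastQC, HISAT2, SAMtools, HTSeq, edgeR and the build mm10, without versions or settings; which annotation and strand setting were used is not given in the sources used here, so antisense and overlapping genes are uncertain. Of the table's reads, 32.2% to 38.5% were assigned to genes, and the summary lines (28.9% to 33.5% outside any feature) were left out of library sizes. Columns of other samples numbered 0.

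The tests used edgeR 4.0.16 under R 4.3.3 (filterByExpr, TMM, quasi-likelihood fits of 4 genotype means over all 12 libraries, Benjamini-Hochberg adjustment over 13065 genes, threshold 0.05). Standard errors came from the F statistic, 95% intervals from the t distribution, and log2 CPM used a prior count of 2. Permutation tests were exact for groups, and used 100000 resamples for correlations. Those of groups did not adjust for the other factor or for Xist class. The closest libraries of a genotype differed by more than counting noise (chi-square per degree of freedom 3.03). On data simulated for 5xFAD against WT, with 200 genes changed, 66.8% of 2-fold and 17.6% of 1.5-fold changes were recovered, among a median of 12918 and 12927 genes. Of the genes called there, 3.28% and 11.4% were false, the second share being above the threshold of 0.05. The members, gene lists and tests were chosen with earlier results of these data known. All 10 members were named, with the 2 genes of smallest p from each list and the 2 closest in level to each member; 1 gene this rule names is not reported here. Other settings tried were no filter, RLE size factors, DESeq2 1.42.0, a mean of 50 counts, only the genotypes compared, the replicate block, Xist class, each library left out, and, chosen after seeing the data, the share of reads outside any feature. Intervals cover the spread between libraries only.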

Additional observations from a re-analysis of the deposited data

How the results depend on the processing

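The count of risk genes past the threshold stayed at 0 of those tested under every alternative run: in all 8 comparisons for DESeq2, other size factors, both filters, the replicate block, Xist class, each library left out and the share of reads outside any feature, and in the 5 pairwise comparisons, the only ones it was run for, with only the compared genotypes. The permutation tests stayed at 0 past the threshold too. A mean of at least 50 counts removed Abca7, Abi3, Plcg2 and Inpp5d. In 5xFAD against WT at least 1 alternative turned the sign of 8 of the 10 genes, all but Apoe and Plcg2, and for the average transgene effect that of 7, all but Apoe, Plcg2 and Sorl1. With the share of reads outside any feature as a term, chosen after seeing the data, the log2 fold change of Cd2ap was -0.27 in 5xFAD against WT and -0.29 for the average transgene effect, and that of Clu in 5xFAD/p75NTRko against WT was 0.036, while Picalm was 0.062 in 5xFAD against WT and 0.12 for the average transgene effect.

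Counts over all genes moved more, and the cause was not tested. In the order 5xFAD and p75NTRko-labelled each against WT, 5xFAD/p75NTRko against 5xFAD, then against p75NTRko-labelled and WT libraries, average transgene effect, average receptor-label effect and interaction, edgeR called 7, 0, 5, 0, 0, 2, 11 and 5 genes, DESeq2 97, 56, 22, 22, 31, 74, 36 and 25, and edgeR without a filter 44, 46, 14, 6, 16, 17, 21 and 15. With only the compared genotypes the first 5 counts were 19, 21, 9, 0 and 1. A mean of at least 50 counts gave 1 for 5xFAD/p75NTRko against 5xFAD, 7 for the average receptor-label effect and 3 for the interaction. Xist class as a term gave 0, 1, 0, 1, 0, 2, 3 and 1. The share of reads outside any feature as a term gave 0, 0, 9, 232, 0, 6, 10 and 3. Leaving out each library gave ranges of 1 to 57, 0 to 26, 0 to 7, 0 to 25, 0 to 4, 2 to 58, 1 to 14 and 3 to 20. The 57 and the 26 came without WT replicate 3, and the 58 without 5xFAD/p75NTRko replicate 1. Leaving out each library moved the log2 fold change of Cd2ap to 0.24 to 0.54 in 5xFAD against WT and 0.17 to 0.32 for the average transgene effect, and that of Clu to -0.24 to -0.15 in 5xFAD/p75NTRko against WT.

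The replicate block (same-numbered libraries treated as pairs) gave 1, 0, 0, 0, 0, 2, 4 and 3 genes in that order. The labels do not say whether a number marks a shared litter or day. Deviations of 18 same-numbered pairs correlated at -0.424 to 0.145 (median -0.0179) and those of 36 other pairs at -0.22 to 0.341. Such correlations over so few libraries cannot decide whether the numbers mark pairs.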
